A study of Homo sapiens with 12 samples.

Results

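The MYC, MAX and MXD network was followed through 10 genes chosen by name in REC1, an established human mantle cell lymphoma line. They were MYC, its partner MAX, the antagonists MXD1, MXD3, MXD4, MXI1, MNT and MGA, and the parallel pair MLX and MLXIP. All 10 were found among the 60483 genes of the count table, and all 10 were among the 14412 genes that passed the filter on low counts. The cells had been exposed to DMSO, which served as the control, to ibrutinib, to SPX5551 or to ibrutinib plus SPX5551, called the combination here. Ibrutinib covalently inhibits BTK, a kinase of B-cell receptor signalling, and SPX5551, written pol5551 in the table headers, is the agent that the title presents as an inhibitor of the chemokine receptor CXCR4. A single library was made for each treatment after 4, 8 and 12 h, 12 in all, and the 3 times were used as the replicates of a treatment (n = 3). The labels state no doses. All libraries come from 1 line, and since nothing says that they were separate cultures, a p-value here covers only their spread.

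CCND1, the cyclin gene activated in mantle cell lymphoma, had 1274 to 1760 CPM (counts scaled to the size of the library) in the 12 libraries. The sum of CCND1 and SOX11, another marker of this lymphoma, was 1280 to 1766 CPM, so nearly all of it was CCND1. Summed levels of 4 T-cell, 4 myeloid and 4 stromal or epithelial markers were at most 9.56, 1.34 and 8.87 CPM, and FCGR3A, PDGFRA and KRT19 were at 0. Libraries held 19336303 to 28934030 counts. They differed along a trend with transcript length. Across genes, which are not independent replicates, exon length and a gene's deviation from its mean had a Spearman rho of -0.36 (SPX5551, 8 h) at the lowest and 0.37 (ibrutinib, 8 h) at the highest. Columns were read by their headers. The sample descriptions pair columns and treatments otherwise, and under them the log2 fold change of MYC for the combination versus DMSO was 0.88, that of MXD3 was -1.11 and that of MXD4 was -0.79, all opposite in sign to the values below.

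MYC is a basic helix-loop-helix leucine zipper transcription factor that binds DNA as a dimer with MAX, at the E-box CACGTG and related sites, and drives genes of growth, ribosome production and biosynthesis. MXD proteins, MXI1, MNT and MGA also dimerize with MAX, recruit corepressors, and occupy the same kind of site without activating it. MLX joins the network from the side of metabolism: it pairs with MLXIP, also called MondoA, which responds to glucose and drives TXNIP, and it can pair with some antagonists. In B cells MYC is induced by antigen receptor signals, and its deregulation is common in lymphoma.

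The network's own promoters were searched for the E-box, the site that MYC and its antagonists bind. RefSeq promoter windows (build GRCh38.p14, 250 bases before and 50 after a start) were matched for 9 of the 10 genes, all but MYC, in 14 windows. CACGTG, which reads the same on both strands, was in 3 of these windows, 1 each of MXD4, MNT and MLX, whereas 7.26% of all 35116 windows held it. Counted from the RefSeq start of the window, the match begins at -238 in MXD4, at -193 in MNT and at -50 in MLX. The GENCODE 29 start of each of these genes lies elsewhere, so these positions do not count from it. The stretches below are shown for MXD4 and MXD3, which rose with the combination, and for the E-boxes of MNT and MLX. They run 5′ to 3′ on the strand of the gene, lie before the gene's GENCODE 29 start, and carry the E-box in capitals. The positions are chr4:2262295-2262359 (minus strand) for MXD4, chr5:177312758-177313002 (minus strand) for MXD3, chr17:2401236-2401265 (minus strand) for MNT and chr17:42567038-42567067 (plus strand) for MLX.
MXD4: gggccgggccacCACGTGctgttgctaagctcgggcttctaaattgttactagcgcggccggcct
MXD3: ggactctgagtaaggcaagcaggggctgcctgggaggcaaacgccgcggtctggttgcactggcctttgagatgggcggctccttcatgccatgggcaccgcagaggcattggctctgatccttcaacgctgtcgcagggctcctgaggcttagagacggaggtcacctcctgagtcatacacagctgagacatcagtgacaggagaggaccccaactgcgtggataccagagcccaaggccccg
MNT: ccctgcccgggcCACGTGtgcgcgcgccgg
MLX: gcgggcgcgggtCACGTGggcacgccaccc
The MXD4 stretch holds the E-box near its far end, and the 245 bases of MXD3 hold none. A match is a string of letters and was not measured as a binding site.

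Levels of different genes were compared per kilobase of exon (GENCODE 29, all exons of a gene joined), averaged over the 12 libraries. MYC had the highest level, 56.8 ± 16.6 CPM per kilobase (SD, n = 12), above MAX at 17.8 ± 0.781 in every library. MLX followed at 15.8 ± 1.70, and its range of 13.3 to 18.9 overlapped that of MAX, 16.7 to 19.1. MGA stood at 7.48 ± 1.97 and MLXIP at 2.62 ± 0.277, and each differed from the gene before it by more than their spread. Below these, MXD1 (2.01 ± 0.540), MNT (1.84 ± 0.407), MXI1 (1.73 ± 0.247), MXD4 (1.10 ± 0.564) and MXD3 (0.708 ± 0.371) did not differ from their neighbours in that order beyond their spread. MXD4 and MXD3, at the bottom of the order, had the widest relative range over the libraries, with a highest level 5.48 and 5.21 times the lowest, and MAX had the narrowest, 1.15 times. MXD3 had at least 27 counts and MXD4 at least 56 counts in a library, so these 2 genes carry the largest counting error.

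**Figure D1:**
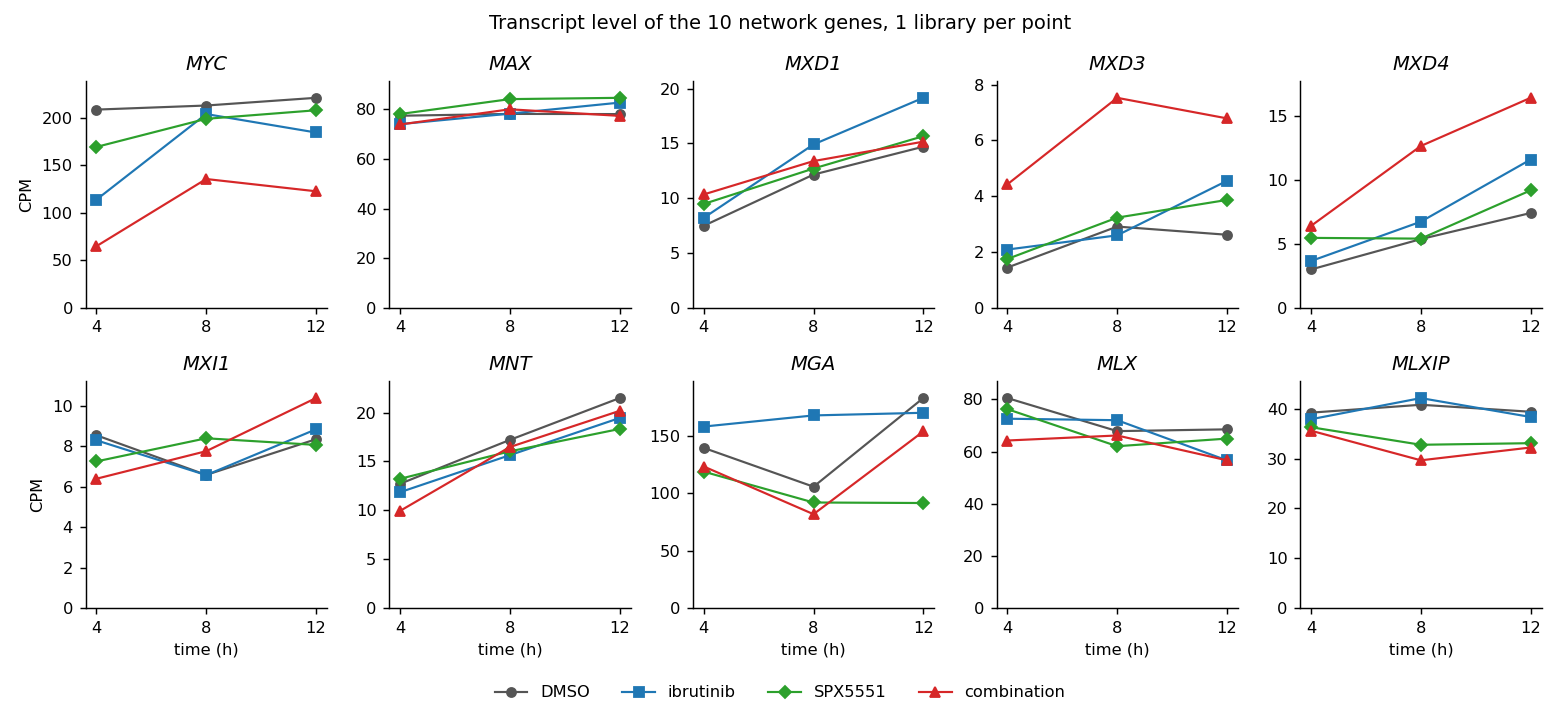
CPM of each of the 10 genes (vertical axis, from 0) against time in hours (horizontal axis), 1 point per library and 1 line per treatment. The combination lies below the other treatments for MYC and above them for MXD3 and MXD4 at each time, while MAX stays between 73.9 and 84.6 CPM.

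MYC (chromosome 8, 127735434 to 127741434, hg38) was lowest in the combination. With DMSO its level was 209 CPM at 4 h, 213 at 8 h and 221 at 12 h, and in the same order 114, 204 and 185 CPM with ibrutinib, 169, 199 and 208 CPM with SPX5551, and 64.9, 136 and 123 CPM with the combination. DMSO was the highest library and the combination the lowest at each time, and the 3 combination values did not overlap those of DMSO or SPX5551. The log2 fold change of MYC for the combination versus DMSO was -1.06 ± 0.15 (SE, 3 libraries a group; adjusted p = 7.4e-04, edgeR's quasi-likelihood test). Same-time log2 differences were -1.68, -0.65 and -0.85 at 4, 8 and 12 h. In bulk RNA, fewer cells that express a gene and less of its RNA per cell cannot be told apart.

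With either agent alone MYC did not pass the test. Its log2 fold change was -0.41 ± 0.15 for ibrutinib versus DMSO (adjusted p = 0.452, edgeR) and -0.17 ± 0.15 for SPX5551 versus DMSO (adjusted p = 0.742). Same-time log2 differences with ibrutinib were -0.87, -0.06 and -0.26, so the 4 h library was the low one. None of the 10 members passed for ibrutinib versus DMSO, where 0.104% of all genes did, and 3 members against 11% of all genes had an unadjusted p under 0.05. MYC was the 1 member whose ibrutinib and DMSO values did not overlap, against 6.02% of all genes. None passed for SPX5551 versus DMSO either, where 0% of all genes did, and 2 members against 8.33% of all genes had an unadjusted p under 0.05. MYC and MLXIP were the 2 members without overlap there, against 7.31% of all genes. DESeq2 also called 0 members in both. With no filter on low counts MYC passed for ibrutinib (-0.40, adjusted p = 0.0175) and MGA for SPX5551 (-0.47, adjusted p = 0.00482). Their log2 fold changes were nearly the same with the filter (-0.41 and -0.47). Calls over all genes went from 15 to 216 for ibrutinib and from 0 to 112 for SPX5551 when the filter was left out. The MGA difference from DMSO was -0.23, -0.20 and -0.998 at 4, 8 and 12 h, and its fitted value was -0.27 without the 12 h SPX5551 library.

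For the combination versus DMSO, 3 of the 10 members passed, 2 higher and 1 lower, where 9.57% of all genes passed (4.16% higher and 5.41% lower). The split of all genes depended on the scaling: 600 were higher and 779 lower with TMM, and 1140 and 493 with library size only. The median log2 fold change was -0.09 over the members and 0.02 over all genes tested. MYC, MXD3 and MXD4 passed with each single library or time left out, with a largest adjusted p of 0.0267, and none passed in a fit without the time term (smallest adjusted p = 0.158). MYC was at -0.75 without the 4 h time point.

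MAX (chromosome 14, 65006174 to 65102695), the shared partner, varied the least. DMSO gave 77.4, 78.1 and 78.1 CPM at 4, 8 and 12 h, followed by 74.0, 78.2 and 82.7 CPM with ibrutinib, 78.1, 84.1 and 84.6 CPM with SPX5551, and 73.9, 80.0 and 77.3 CPM with the combination. All 4 treatments overlapped. Its log2 fold change for the combination versus DMSO was -0.02 ± 0.08 (adjusted p = 0.935, edgeR), and it passed in none of the 10 comparisons.

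Among the antagonists, MXD4 and MXD3 rose with the combination. MXD4 (chromosome 4, 2247432 to 2262294), a MAX partner that recruits SIN3 corepressors, stood at 2.99, 5.36 and 7.40 CPM with DMSO at 4, 8 and 12 h, at 3.65, 6.72 and 11.6 CPM with ibrutinib, 5.46, 5.40 and 9.16 CPM with SPX5551, and 6.40, 12.6 and 16.4 CPM with the combination. The DMSO and combination ranges overlapped, both climbed with time, and the combination was 2.11, 2.33 and 2.20 times DMSO at 4, 8 and 12 h. The log2 fold change was 1.17 ± 0.17 (adjusted p = 0.00101, edgeR). MXD3 (chromosome 5, 177301461 to 177312757), a family member linked to proliferating cells, stood at 1.44, 2.91 and 2.62 CPM with DMSO, and at 4.43, 7.52 and 6.79 CPM with the combination. Ibrutinib gave 2.09, 2.60 and 4.55 CPM and SPX5551 gave 1.75, 3.23 and 3.86 CPM. The combination values lay above all DMSO values, and the log2 fold change was 1.44 ± 0.20 (adjusted p = 5.8e-04, edgeR).

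MXD3 shares exon bases with RAB24 on its own strand and with PRELID1 on the other, and whether counting used strand is unknown here, so reads of such partners cannot be told apart. PRELID1, a mitochondrial lipid carrier, had 105 to 176 CPM and a log2 fold change of -0.22 ± 0.10 for the combination versus DMSO, opposite in sign to MXD3 (adjusted p = 0.198, edgeR). RAB24 had at most 0.750 CPM and was at 0.48 ± 0.41 (adjusted p = 0.516), the same sign as MXD3. MXD1 shares exon bases with SNRNP27, which was at 0.08 ± 0.10 in the same comparison.

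The other antagonists did not pass for the combination versus DMSO. MXD1 (chromosome 2, 69897688 to 69942945), the founding MXD gene, stood at 7.48, 12.2 and 14.7 CPM with DMSO, and at 10.3, 13.4 and 15.2 CPM with the combination (log2 fold change 0.21 ± 0.13, adjusted p = 0.345, edgeR). MXI1 (chromosome 10, 110207605 to 110287365), also called MXD2, stood at 8.55, 6.59 and 8.35 CPM with DMSO, and at 6.40, 7.76 and 10.4 CPM with the combination (0.06 ± 0.16). MNT (chromosome 17, 2384060 to 2401118), an antagonist that most cell types express, stood at 12.7, 17.2 and 21.5 CPM with DMSO, and at 9.95, 16.5 and 20.2 CPM with the combination (-0.16 ± 0.11). These 3 genes overlapped between the groups. MGA (chromosome 15, 41621224 to 41773081), a very large scaffold that carries a T-box domain beside its MAX-binding domain, stood at 139.5, 106 and 183 CPM with DMSO, and at 123, 81.8 and 154 CPM with the combination (-0.26 ± 0.16, adjusted p = 0.327). The 12 h library was the highest and the 8 h library the lowest of both groups.

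On the metabolic side both genes leaned down without passing. MLXIP (chromosome 12, 122078722 to 122147347) stood at 39.2, 40.8 and 39.4 CPM with DMSO, and at 35.6, 29.7 and 32.2 CPM with the combination. The groups did not overlap, and the log2 fold change of -0.30 ± 0.09 missed the threshold (adjusted p = 0.0593, edgeR). It passed in 9 of 25 alternatives, among them DESeq2 (-0.32, adjusted p = 0.0305) and the fits without the 8 h ibrutinib (adjusted p = 0.0381), the 4 h SPX5551 (0.0417) or the 12 h SPX5551 library (0.0407). MLX (chromosome 17, 42567068 to 42573239) stood at 80.5, 67.9 and 68.5 CPM with DMSO, and at 64.3, 66.2 and 56.7 CPM with the combination (-0.21 ± 0.09, adjusted p = 0.180), again with no overlap. MYC, MXD3, MLX and MLXIP were the 4 of 10 members whose DMSO and combination values did not overlap, as did those of 11.5% of all genes. MLX shares exon bases with PSMC3IP on the other strand, which was at 0.27 ± 0.11.

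**Figure D2:**
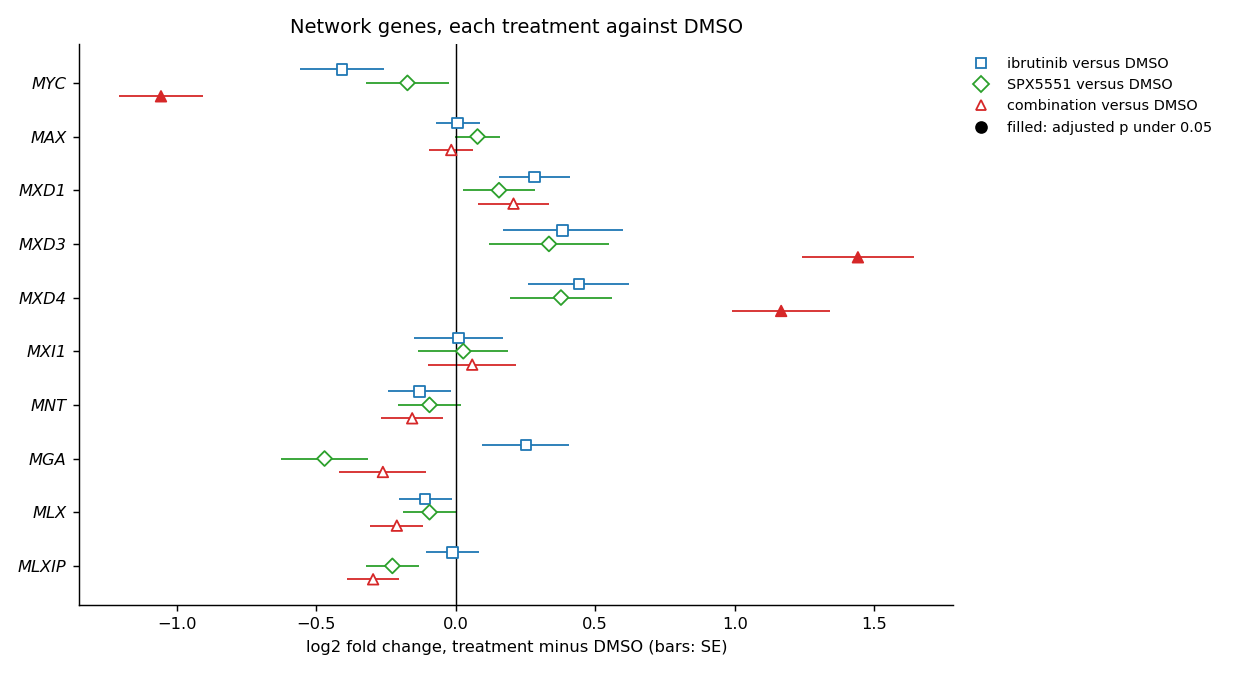
Log2 fold change against DMSO (horizontal axis) of the 10 genes (rows) for ibrutinib, SPX5551 and the combination, with bars of 1 SE and filled symbols where the adjusted p was under 0.05. Filled symbols stand only at the combination, for MYC at -1.06, MXD3 at 1.44 and MXD4 at 1.17.

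The same 3 genes passed when the combination was set against each single agent. Versus ibrutinib, MYC was lower (-0.65 ± 0.15, adjusted p = 0.0234, edgeR), and MXD3 (1.06 ± 0.19, adjusted p = 0.00910) and MXD4 (0.72 ± 0.17, adjusted p = 0.0226) were higher, 3 of 10 members where 5.49% of all genes passed (2.1% higher and 3.39% lower; 302 and 489 genes, or 454 and 265 with library size only). That share was 0.519% without the 8 h ibrutinib library. An unadjusted p under 0.05 was seen in 5 members and in 23.5% of all genes. MGA was at -0.51 ± 0.16 and MLXIP at -0.28 ± 0.09, and neither passed. They were the 2 members whose values did not overlap between these groups, against 13.4% of all genes. These calls rested on few libraries. MYC did not pass without the ibrutinib library of 4, 8 or 12 h (adjusted p = 0.0504, 0.149 and 0.0758) or the 4 h combination library (0.111). MXD3 did not pass without the 8 h ibrutinib (0.0870) or the 8 h combination library (0.0621). MXD4 did not pass without the ibrutinib library of 4 or 8 h (0.0995 and 0.137) or the combination library of 4, 8 or 12 h (0.0557, 0.165 and 0.0509). Without the 4 h or the 8 h time point none of the 3 passed. MGA passed in 7 of 25 alternatives: in DESeq2 (-0.53, adjusted p = 0.0175), with no filter on low counts (adjusted p = 4.8e-05), with only the libraries of both groups (adjusted p = 0.0477), without the 12 h SPX5551 library (adjusted p = 0.0165), without the 12 h combination library (-0.68, adjusted p = 0.0385), without the 12 h time point (-0.71, adjusted p = 6.9e-04) and with the trend with transcript length and GC removed (-0.32, adjusted p = 0.0324).

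Versus SPX5551, MYC was lower (-0.88 ± 0.15, adjusted p = 0.00417, edgeR), and MXD3 (1.11 ± 0.19, adjusted p = 0.00432) and MXD4 (0.79 ± 0.17, adjusted p = 0.0123) were higher, 3 of 10 members where 7.24% of all genes passed (3.27% higher and 3.97% lower; 471 and 572 genes, or 871 and 393 with library size only). MYC and MXD3 passed with each single library left out, and MXD3 did not pass without the 4 h time point (adjusted p = 0.0651). MXD4 did not pass without the SPX5551 library of 8 or 12 h (adjusted p = 0.113 and 0.0645) or the combination library of 8 or 12 h (0.0532 and 0.0508), nor without the 8 h time point (0.53, adjusted p = 0.150). Comparisons that share a group share its libraries, so the 3 combination contrasts are not independent.

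Whether both agents together differed from the sum of their separate log2 effects was tested as an interaction. It was -0.48 ± 0.21 for MYC (adjusted p = 0.835, edgeR), 0.72 ± 0.29 for MXD3 (adjusted p = 0.783) and 0.35 ± 0.25 for MXD4 (adjusted p = 0.930). None of the 10 members passed, where 0% of all genes did. MYC and MXD3 had an unadjusted p under 0.05, as did 5.86% of all genes, and DESeq2 called 0 members. With these libraries a departure from additivity was not detectable, which does not show that the effects were additive.

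The 6 libraries exposed to ibrutinib (ibrutinib and combination) were then set against the other 6, with SPX5551 exposure and time in the model. MYC was lower (-0.64 ± 0.12, adjusted p = 0.00476, edgeR), and MXD3 (0.79 ± 0.16, adjusted p = 0.00941) and MXD4 (0.63 ± 0.13, adjusted p = 0.00851) were higher. These were 3 of 10 members where 13.7% of all genes passed (7.14% higher and 6.58% lower; 1029 and 949 genes, or 1642 and 605 with library size only). The mean level of MYC was 138 CPM in exposed and 203 CPM in unexposed libraries, and the ranges overlapped. No member had values without overlap here, as 0.853% of all genes did, and 4 members against 31.8% of all genes had an unadjusted p under 0.05. Each of the 3 genes passed with any single library left out. None of them passed for ibrutinib alone versus DMSO. The combination libraries are on the exposed side here and for SPX5551, so a difference seen only with both agents enters both exposure contrasts. Without the 12 h time point MXD3 (0.76, adjusted p = 0.0860) and MXD4 (0.54, adjusted p = 0.107) did not pass, nor did MXD4 without 8 h (0.51, adjusted p = 0.117). The exposed minus unexposed log2 difference of MYC was -1.13, -0.31 and -0.51 at 4, 8 and 12 h. Whether it differed between times did not pass (adjusted p = 1, unadjusted p = 0.00814, edgeR), where 0% of all genes passed and 1.75% had an unadjusted p under 0.05. DESeq2 called 0 members there.

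Exposure to SPX5551, with ibrutinib exposure and time in the model, gave calls in 5 of 10 members where 7.01% of all genes passed (2.12% higher and 4.89% lower; 306 and 705 genes, or 433 and 315 with library size only). MXD3 (0.74 ± 0.16, adjusted p = 0.0186, edgeR) and MXD4 (0.57 ± 0.13, adjusted p = 0.0192) were higher. MGA (-0.49 ± 0.11, adjusted p = 0.0177), MLXIP (-0.26 ± 0.07, adjusted p = 0.0305) and MYC (-0.41 ± 0.12, adjusted p = 0.0428) were lower. MLXIP was the member whose exposed values, 29.7 to 36.3 CPM, lay entirely below the unexposed ones, 37.9 to 42.1 CPM, as did those of 0.611% of all genes in either direction. MGA had 119, 92.0 and 91.5 CPM with SPX5551 at 4, 8 and 12 h, against 158, 168 and 170.1 CPM with ibrutinib. The exposed and unexposed values of MGA overlapped: the combination reached 154 CPM at 12 h, and DMSO had 106 CPM at 8 h.

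These SPX5551 calls were the least stable. MYC passed only with the 8 h DMSO or the 4 h SPX5551 library left out, and not without any of the other 10, with adjusted p up to 0.140. MLXIP did not pass without 8 of the 12 libraries in turn (12 h DMSO, each ibrutinib library, 8 and 12 h SPX5551, 8 and 12 h combination), with adjusted p up to 0.108. MXD3 did not pass without 5 (12 h DMSO, 4 and 8 h ibrutinib, 4 and 8 h combination; up to 0.0823), MXD4 without 4 (12 h DMSO, 4 and 8 h ibrutinib, 8 h combination; up to 0.0911) and MGA without 3 (12 h DMSO, 8 h ibrutinib, 8 h combination; up to 0.0649). MGA has 17651 bases of exon and MLXIP 13905, the 2 longest of the network, and the SPX5551 libraries had a rho with length of -0.18, -0.36 and -0.34 and the combination libraries -0.03, -0.27 and 0.22, against 0.15, 0.37 and 0.28 with ibrutinib and -0.15, -0.26 and 0.33 with DMSO. With the trend with transcript length and GC removed, MGA was at -0.31 instead of -0.49 and still passed (adjusted p = 0.00768, edgeR). MLXIP was at -0.12 instead of -0.26 and did not pass (adjusted p = 0.202). Whether length accounts for these calls was not tested.

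The balance of MYC against its antagonists was described as log2 CPM of MYC minus the mean log2 CPM of MXD1, MXD3, MXD4, MXI1, MNT and MGA. It is a score over chosen genes and was given no test. At 4, 8 and 12 h it was 4.53, 4.20 and 3.91 in DMSO, 3.49, 3.97 and 3.38 with ibrutinib, 4.05, 4.06 and 3.88 with SPX5551, and 2.48, 3.13 and 2.65 with the combination. The combination was the lowest at each time and DMSO the highest. Relative to DMSO at the same time, the balance differed by -1.46 ± 0.52 (SD, n = 3 times) with the combination, -0.60 ± 0.41 with ibrutinib and -0.22 ± 0.23 with SPX5551. Of the -1.46, MYC made up -1.06, and the antagonists' mean was 0.40 higher. MXD3 and MXD4, the least abundant antagonists, were the ones that rose, while the fitted values of MXD1, MXI1, MNT and MGA lay between -0.26 and 0.21. For ibrutinib the MYC part was -0.40 and the antagonists were 0.20 higher, and for SPX5551 the values were -0.16 and 0.05.

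Weighted by abundance instead, the ratio of MYC to the summed antagonists per kilobase was 5.31, 5.62 and 3.98 in DMSO at 4, 8 and 12 h, 2.65, 4.11 and 3.19 with ibrutinib, 4.54, 5.41 and 5.12 with SPX5551 and 1.68, 3.33 and 2.12 with the combination. On this scale the mean log2 difference from DMSO was -1.11 with the combination, -0.59 with ibrutinib and 0.03 with SPX5551, so the sign for SPX5551 turned. The antagonist sum itself was 13.1, 12.6 and 18.5 CPM per kilobase in DMSO and 12.9, 13.6 and 19.3 with the combination. MGA alone held 34.1 to 62.5% of this sum over the libraries, and it is also the longest gene of the network.

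**Figure D3:**
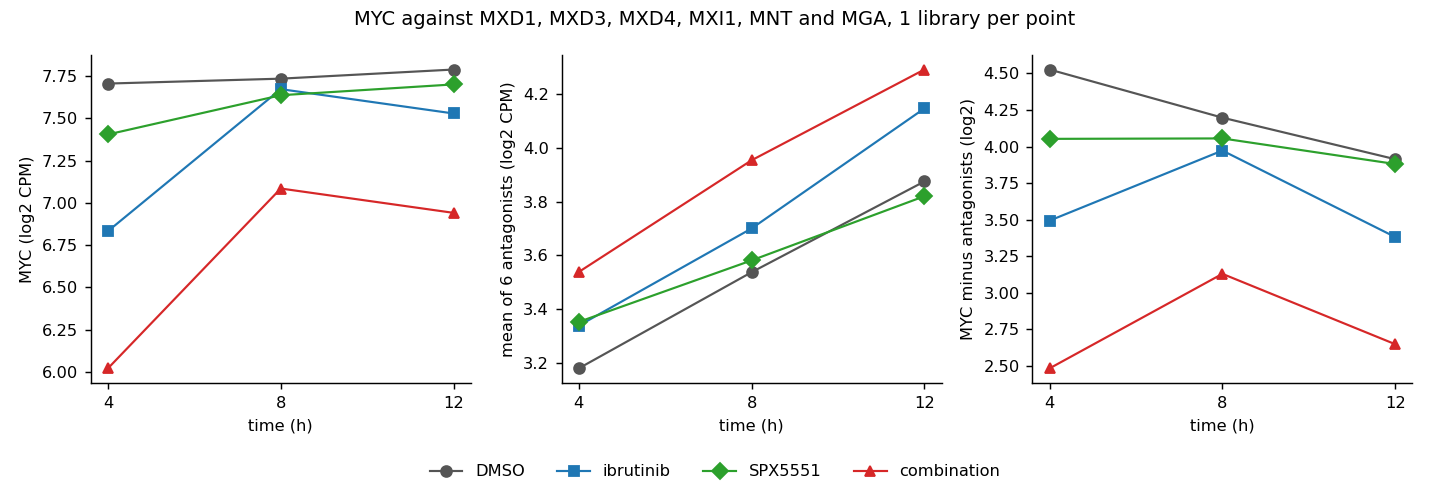
From left to right, log2 CPM of MYC, the mean log2 CPM of its 6 antagonists, and their difference (vertical axes) against time in hours, 1 point per library and 1 line per treatment. The combination has the lowest MYC and the highest antagonist mean at each time, which leaves its difference between 2.48 and 3.13.

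Members also differed with time in culture, as did a large share of all genes, so the counts are not read as a trait of the network. Between 4 and 12 h, with the 4 treatments as replicates (n = 4), 6 of 10 members passed, 5 higher and 1 lower, where 35.9% of all genes passed (18.4% higher and 17.5% lower; 2645 and 2522 genes, or 3524 and 1676 with library size only) and 45.5% had an unadjusted p under 0.05. MXD4 rose by 1.26 ± 0.15 on the log2 scale (adjusted p = 4.1e-05, edgeR), MXD1 by 0.86 ± 0.11 (adjusted p = 6.3e-05), MNT by 0.74 ± 0.10 (adjusted p = 7.8e-05) and MXD3 by 0.91 ± 0.18 (adjusted p = 0.00126). In MXD4, MXD1 and MNT every 12 h library lay above every 4 h library, as in 24.1% of all genes in either direction. MNT went from 12.7 to 21.5 CPM in DMSO, 11.9 to 19.5 with ibrutinib, 13.2 to 18.3 with SPX5551 and 9.95 to 20.2 with the combination. MYC was 0.48 ± 0.13 higher at 12 h (adjusted p = 0.00996, edgeR). In DMSO it went from 209 to 221 CPM. With ibrutinib it went from 114 to 185, with SPX5551 from 169 to 208 and with the combination from 64.9 to 123. MYC did not pass without the 4 h ibrutinib library (0.39, adjusted p = 0.0580) or the 4 h combination library (0.32, adjusted p = 0.0756). MLX was lower by -0.25 ± 0.08 (adjusted p = 0.0268). Its call was lost without the 4 h library of DMSO (adjusted p = 0.0834), ibrutinib (0.0713) or SPX5551 (0.0754), or the 12 h library of ibrutinib (0.114) or the combination (0.0668). PSMC3IP, which shares exon bases with MLX, was at -0.23 ± 0.09 between these times (adjusted p = 0.0616, edgeR), the same sign as MLX. SNRNP27, RAB24 and PRELID1 were at -0.29, -0.16 and -0.13, opposite in sign to MXD1 and MXD3. MAX, MXI1, MGA and MLXIP did not pass.

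Genes that act around the network were read from lists of textbook function. In the combination versus DMSO, 18 of 27 tested genes known to be activated by MYC fell and 0 rose, with a median log2 fold change of -0.42 against 0.02 over all genes, of which 5.41% fell. This list overlaps ribosome biogenesis genes already seen to fall in these libraries and is not independent evidence. DKC1, the pseudouridine synthase dyskerin, fell by 0.65 ± 0.10 (adjusted p = 0.00105, edgeR), and POLR1B, a subunit of RNA polymerase I, by 0.62 ± 0.10. NCL, the nucleolar protein nucleolin, fell by 0.59 ± 0.09, and NOP56, a core protein of small nucleolar particles, fell by 0.58 ± 0.09. The list gave 0 calls for ibrutinib versus DMSO (median -0.10) and for SPX5551 versus DMSO (median -0.01), 8 of 27 lower versus ibrutinib, where 3.39% of all genes were lower, and 14 of 27 lower versus SPX5551, where 3.97% were. For ibrutinib exposure 13 were lower and 1 higher (6.58 and 7.14% of all genes), and for SPX5551 exposure 6 were lower and 0 higher (4.89 and 2.12%). Between 4 and 12 h 13 were lower and 1 higher (17.5 and 18.4% of all genes), with a median of -0.25. MYC was 0.48 ± 0.13 higher in that comparison, with 209 CPM at 4 h and 221 CPM at 12 h in DMSO. A link between the list and MYC was not tested. CCND2, the remaining gene of the list, was too low to test.

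Of 7 tested genes known to be repressed by MYC, 1 rose and 0 fell (median 0.22), where 4.16% of all genes rose and 5.41% fell, and from so few genes nothing is read about the list. It was NDRG1, a stress and differentiation gene, 2.46, 1.48 and 2.21 CPM with DMSO against 2.81, 4.90 and 4.99 CPM with the combination (1.05 ± 0.24, adjusted p = 0.0144, edgeR). The cell cycle inhibitor CDKN1B was at 0.31 and did not pass. Of 5 targets of MondoA and MLX, 1 rose and 1 fell, again too few to set against the share of all genes. TXNIP, which restrains glucose uptake, rose by 0.42 ± 0.09 (adjusted p = 0.0111), and HK2, a hexokinase, fell by 0.59 ± 0.11 (adjusted p = 0.00436). ARRDC4, a TXNIP relative, had at most 2.18 CPM and was at -0.75 ± 0.39 without passing.

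Among genes of MYC protein turnover, USP36 and PIM2 fell. USP36, a nucleolar deubiquitinase that stabilizes MYC, fell by 0.61 ± 0.09 (adjusted p = 7.1e-04, edgeR), and PIM2, a kinase that acts on MYC, fell by 0.48 ± 0.12 (adjusted p = 0.0165). FBXW7, the ubiquitin ligase subunit for MYC, did not pass (-0.17 ± 0.09). Of 16 MYC cofactors 0 passed for the combination versus DMSO (median -0.04), where 9.57% of all genes did. Of 20 corepressors of MXD, MNT and MGA 0 passed there (median -0.05). For ibrutinib exposure 4 cofactors were higher and 0 lower, and 2 corepressors higher and 1 lower (7.14 and 6.58% of all genes). For SPX5551 exposure 0 cofactors were higher and 4 lower, and 0 corepressors higher and 1 lower (2.12 and 4.89%). Between 4 and 12 h these counts were 2 and 3 for cofactors and 4 and 5 for corepressors (18.4 and 17.5%). The cofactors TRRAP, EP400 and EP300 passed for both exposures with opposite signs. They were at 0.42, 0.31 and 0.51 for ibrutinib and at -0.44, -0.36 and -0.49 for SPX5551. Each was highest in the 8 h ibrutinib and lowest in the 12 h SPX5551 library. Whether the trend with transcript length accounts for these counts was not tested. Among MYC's relatives, MYCN had at most 2 counts and MLXIPL at most 4 counts in a library, and MYCL had 1.10 to 1.92 CPM (-0.13 ± 0.25 for the combination versus DMSO). PVT1, the long non-coding RNA next to MYC on the same chromosome, fell by 0.61 ± 0.11 (adjusted p = 0.00325), from 34.2, 29.2 and 20.3 CPM in DMSO to 20.7, 19.0 and 14.7 CPM.

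**Figure D4:**
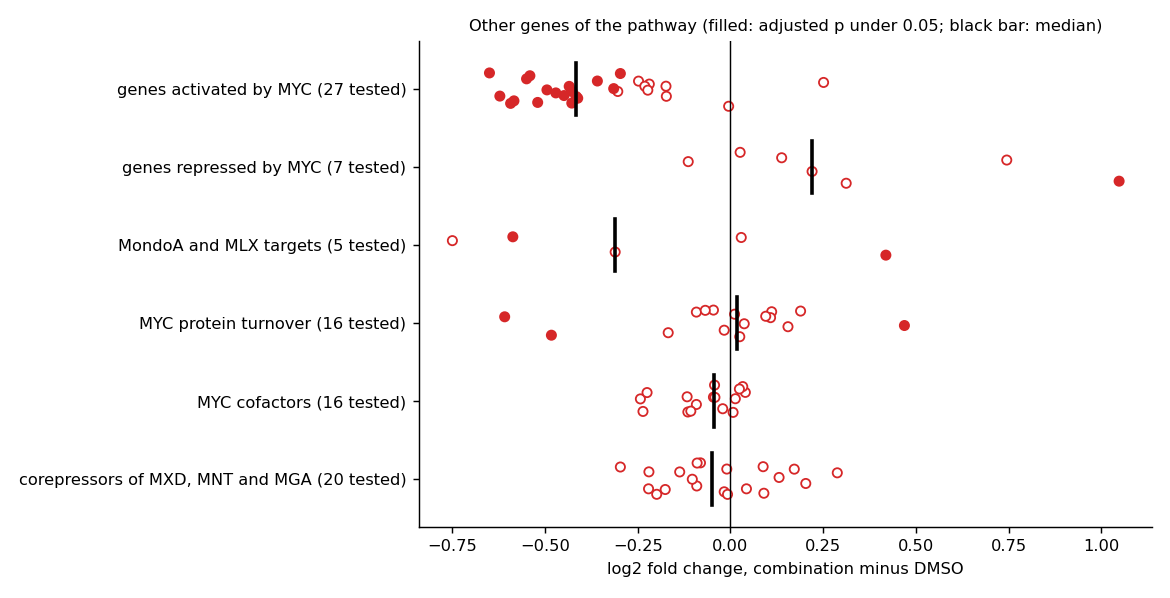
Log2 fold change for the combination versus DMSO (horizontal axis) of each tested gene in 6 lists (rows), with filled points where the adjusted p was under 0.05 and a black bar at the median; points are spread vertically at random. The genes activated by MYC hold 18 filled points, all below 0, and the cofactor and corepressor lists hold 0.

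The genes whose course over the 12 libraries was closest to that of MYC were found by the root mean square difference of centred log2 CPM. Among 10112 genes compared they were LAIR1 (0.18), ZFP36L1 (0.19), SLA (0.21), KLF11 (0.23) and FCRL4 (0.24), where the median gene was at 0.56. LAIR1 and FCRL4 are inhibitory receptors of immune cells, ZFP36L1 binds AU-rich mRNAs, SLA is a Src-like adaptor and KLF11 a Krüppel-like transcription factor. Closest to MXD4 were CASP10, a caspase (0.18), YPEL3 (0.19), the autophagy receptor CALCOCO1 (0.20), ABTB1 (0.20) and NATD1 (0.25), where the median gene was at 0.71. CASP10 ran from 3.37 to 17.9 CPM over the libraries and MXD4 from 2.99 to 16.4 CPM.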

How the data were processed

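Transcripts were measured by RNA sequencing of poly(A) RNA with a directional kit, per the labels' protocols; the labels also name genomic DNA as the molecule, which those protocols contradict. The authors deposited counts per Ensembl gene and a table of log2 CPM for 14767 of the 60483 genes. BWA and hg38 are named, per the submitters' processing notes; counting tool, annotation, strand setting and the scaling of the log2 CPM were not given in the sources used here. Columns were grouped by treatment and time as their headers state. Each ibrutinib column is cited in the description of a sample with another treatment, so it was assigned to its treatment and time but to no single sample. The headers of the other columns match sample titles apart from letter case. PCR copies carry no identifier and their share was not measured, so that intervals from counts alone can be too narrow. No 2 libraries were copies: chi-square per degree of freedom was at least 5.04.

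Symbols and positions came from GENCODE 29 and a current symbol table (93.8% of identifiers had a symbol). Genes were filtered with filterByExpr, scaled by TMM factors and tested in edgeR 4.0.16 under R 4.3.3, with treatment and time as additive terms, Benjamini-Hochberg adjustment over 14412 genes and a threshold of 0.05. CPM use TMM library sizes; log2 CPM carry a prior count of 2. SE is the absolute log2 fold change over the square root of F. The scripts were tested on simulated data. Alternatives were DESeq2 1.42.0, limma 3.58.1 on the deposited log2 CPM, other scalings and filters, and left-out libraries.

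The network, the lists and the comparisons were chosen with earlier results of these data known. All 10 members are named; from each other list up to 4 genes that passed for the combination versus DMSO with the largest absolute log2 fold change, MYC's relatives whole, and the 5 genes nearest in course to MYC and to MXD4 (mean log2 CPM of at least 2). FBXW7, CDKN1B, ARRDC4, TRRAP, EP400, EP300 and the overlapping genes were added after their values were seen. Results that need some withheld genes, among them the B-cell marker sum and the full count of the MYC protein turnover list, are not reported here.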

Additional observations from a re-analysis of the deposited data

How the results depend on the processing

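Over 35 pairs of a member and a comparison with an unadjusted p under 0.05, 805 values came from alternatives other than the descriptions' pairing, and 1 of them turned sign: MGA under ibrutinib exposure, -0.023 once ibrutinib 8 h and SPX5551 12 h were dropped. Library-size scaling moved the median of all genes by at most 0.10.

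Numbers of members that passed changed as follows. Without a time term 0 passed for the combination versus DMSO, ibrutinib or SPX5551 and for exposure to ibrutinib or SPX5551. Of all genes 0.187, 0, 0.0347, 0.201 and 0% passed there, in that order. With only the libraries of both groups 5 passed for the combination versus DMSO (18.7% of all genes). With ibrutinib 8 h and SPX5551 12 h dropped 5 did (17.4%), and 2 passed for SPX5551 exposure (1.76%). With no filter on low counts 1 passed for ibrutinib versus DMSO (0.671% of all genes), 1 for SPX5551 versus DMSO (0.348%) and 1 for ibrutinib exposure by time (0.0652%). With the length and GC trend removed 5 passed for ibrutinib exposure (15.1% of all genes), and with library size only 3 for SPX5551 exposure (5.19%). With 1 library or time left out, the range was 0 to 1 for ibrutinib versus DMSO, 3 to 4 for the combination versus DMSO, 0 to 4 versus ibrutinib, 2 to 3 versus SPX5551, 1 to 3 for ibrutinib exposure and 0 to 5 for SPX5551 exposure. For the combination versus DMSO, 1379 of all genes passed, 27 without a time term, 2598 with both groups alone, 2549 with ibrutinib 8 h and SPX5551 12 h dropped, 2081 with the trend removed, and 278 to 1671 with 1 library or time left out. That last range in percent of all genes was 0 to 4.61 for ibrutinib versus DMSO (4.61 without 12 h), 0.0136 to 11.3 for the combination versus ibrutinib (0.0136 without 4 h), 0.879 to 8.9 versus SPX5551, 0.574 to 17.9 for ibrutinib exposure, 0 to 12.2 for SPX5551 exposure and 24.1 to 37.4 for 12 versus 4 h. The cause of these changes was not tested.

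Under the descriptions' pairing, 3 members passed for ibrutinib and 3 for SPX5551 versus DMSO, 0 for the combination versus ibrutinib, 1 versus SPX5551, 5 for the interaction, 1 for ibrutinib exposure and 0 for SPX5551 exposure. In the same order, 9.57, 5.49, 0, 13.2, 6.75, 2.62 and 0% of all genes passed. Log2 fold changes that reversed were, for ibrutinib versus DMSO, MYC 1.06, MXD1 -0.21 and MXD4 -1.17; for SPX5551 versus DMSO, MGA 0.51 and MLXIP 0.28; for the combination versus DMSO, MYC 0.88, MXD3 -1.11, MXD4 -0.79, MLX 0.12 and MLXIP 0.068; versus SPX5551, MYC 0.23, MXD3 -0.049 and MXD4 -0.064. For ibrutinib exposure they were MYC 0.64, MXD3 -0.76, MXD4 -0.61 and MGA -0.23, and for SPX5551 exposure MYC 0.24, MXD3 -0.43, MXD4 -0.21, MGA 0.024 and MLXIP 0.03. The balance differed from DMSO by 1.46 for ibrutinib, 0.86 for SPX5551 and 1.24 for the combination. On the summed per-kilobase scale the SPX5551 balance was 0.027. No paired analysis was possible because each treatment and time has 1 library, beyond the time term already in the model.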
